A study of Homo sapiens with 3 samples.

Results

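The TALE homeobox cofactors of HOX proteins are described here in HCT116 cells, an established human colon cancer cell line, after silencing of *HOXA5* short RNA, a non-coding transcript of the *HOXA6*-*HOXA5* locus. The 9 genes were chosen by name: *PBX2*, *PBX3* and *PBX4*, *MEIS1*, *MEIS2* and *MEIS3*, *PKNOX1* and *PKNOX2*, and *TGIF1*. Their probes were found by matching the transcript accession of each probe to RefSeq, which gave 11 probes for 8 of the 9 genes and none for *PKNOX2*. Of the 8 genes, 7 had a probe that was well above background on all 3 arrays, as did 12031 of the 21614 named genes with a probe. The cells received control siRNA, siRNA #7 or siRNA #8 (10 nM in the methods of the study) and were harvested after 48 h. The arrays were assigned to siRNA #7 and siRNA #8 by their sample titles, while the names of the deposited files number the siRNAs otherwise, and each statement on siRNA #7 against siRNA #8 rests on the titles. From each, 400 ng of RNA was labeled with Cy3 and hybridized to 1 SurePrint G3 array. Both siRNAs were drawn by the study across a splice junction of *HOXA5* short RNA, and the control siRNA array is the single array without silencing. With 1 array per condition, no difference below has a replicate check, the values carry no p-value outside of 1 joined fit, and the number of arrays limits the precision.

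TALE proteins carry a homeodomain with a three-amino-acid loop extension between its first helices. PBX proteins bind DNA together with HOX proteins and sharpen the choice of HOX binding sites. MEIS proteins and the related PKNOX (PREP) proteins pair with PBX and control its entry into the nucleus and its stability, and MEIS proteins can also bind DNA with posterior HOX proteins. TGIF1 is the outlying member here, a repressor of SMAD and retinoid signaling that works with corepressors rather than with HOX proteins. A change in the amount of these cofactors can alter the output of HOX proteins that are themselves constant.

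The siRNA sequences are shown because they define the conditions compared. Read 5′ to 3′ as the study lists them, with the stretch that they share in capitals, they were:
siRNA #7: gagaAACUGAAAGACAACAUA
siRNA #8: AACUGAAAGACAACAUAggcg
Of the 21 bases of each siRNA, 17 were common to both, and siRNA #8 was shifted by 4 bases along the target. The siRNAs thus overlap on the target, and both were compared with the same control array.

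Signal well above background was found for 20473 of 50599 gene probes on the control array, for 19069 after siRNA #7 and for 19250 after siRNA #8, and no spot was saturated. Intensities are given after scaling to the 75th percentile of the control siRNA array, which multiplied the deposited values by 1.25 for siRNA #7 and by 1.23 for siRNA #8. The error given beside a ratio is the spot-to-spot SD from probes printed 10 times on the same array and well above background there. It ranged from 0.31 for the dimmest to 0.10 for the brightest such probes on the control siRNA array (log2 scale). For a probe on more than 1 spot it was divided by the square root of the number of spots. Each probe of a cofactor was printed on 1 spot, so its own spot error is not known, and this error leaves out the variation between cultures. The probe of *HOXA5*, the gene whose locus gives the silenced RNA, read 84.9 on the control array, 66.0 after siRNA #7 and 72.2 after siRNA #8, log2 ratios of -0.36 (SD 0.25) and -0.23 (SD 0.26). Whether this probe also measures *HOXA5* short RNA was not tested. Of 7 markers of colon epithelium, 6 were well above background on each array, all but *VIL1*. Of 7 markers of other cell types, *COL1A1* and *DES* were well above background on each array, and *PTPRC*, *CD3E*, *PECAM1*, *COL3A1* and *ALB* were on none.

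By their brightest passing probes, 0 of the 7 cofactors measured on all arrays differed 2-fold from control siRNA with siRNA #7. Of all passing genes, 3.77% did (1.72% lower and 2.04% higher). A dimmer *PBX3* probe, which did not pass, read 2.27-fold lower with siRNA #7, where it was not well above background, and is described below. With siRNA #8, 1 of the 7, *PBX3*, was at least 2-fold lower and 0 were higher, where 4.98% of all passing genes passed 2-fold (3.03% lower and 1.95% higher). With both siRNAs, 0 cofactors lay past 2-fold on the same side of the control, against 0.898% of all passing genes (0.158% lower and 0.74% higher). The median log2 ratio of the 7 genes to control siRNA was -0.046 with siRNA #7 and -0.016 with siRNA #8, close to the medians of all passing genes (0.014 and 0.0072). By sign, *PBX2*, *PBX3*, *MEIS2* and *PKNOX1* had negative ratios with both siRNAs and *PBX4*, *MEIS3* and *TGIF1* positive ones with both, *PBX2* with siRNA #8 by only -0.016. These signs share the control spot of each gene and were not stable under all scalings. All 7 cofactors thus had the same sign with both siRNAs, as did 7599 of the 12031 passing genes. Scaling on the E1A spike-in controls put the median of all passing genes at -0.30 with siRNA #7 and at -0.20 with siRNA #8, and 6 and 5 of the 7 cofactors, respectively, were then below the control. At 1.5-fold, 1 of the 7 passed with siRNA #7 (*MEIS2*), where 14.5% of all passing genes did, and 2 with siRNA #8 (*PBX3* and *MEIS3*), where 18% did.

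**Figure D1:**
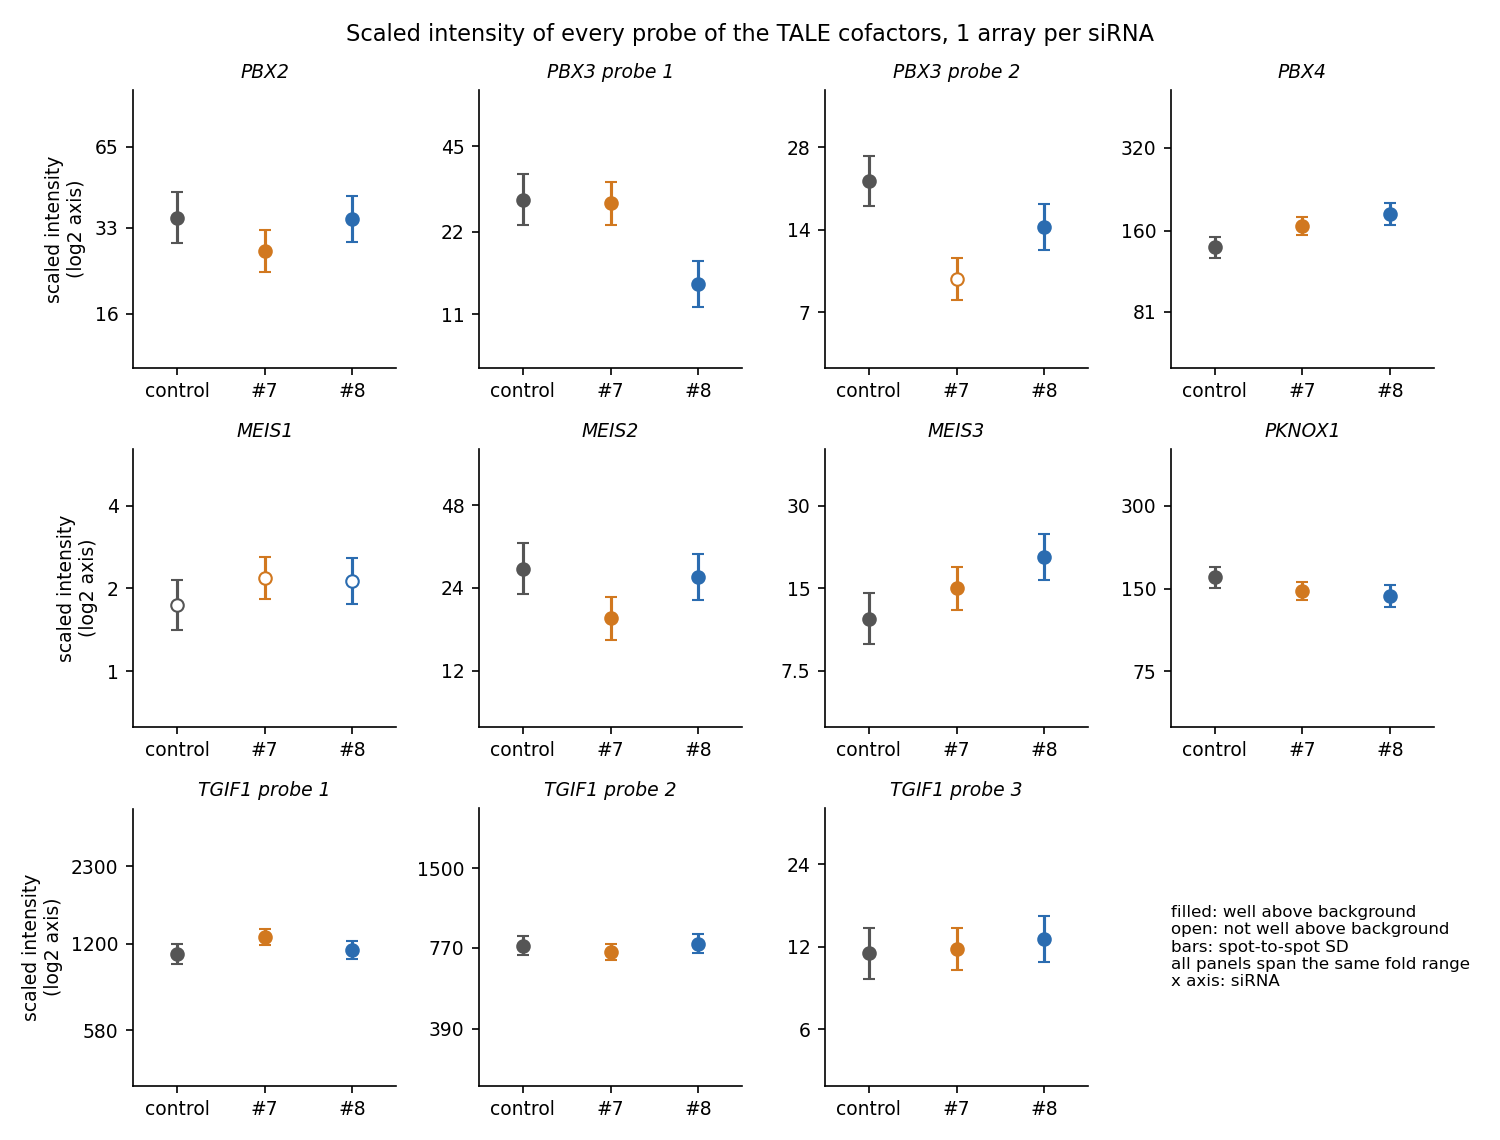
Scaled intensity (log2 axis, the same fold range in each panel) of the 11 probes of the TALE cofactors on the control siRNA, siRNA #7 and siRNA #8 arrays, 1 point per array, with bars for the spot-to-spot SD and open points where the probe was not well above background. The brighter *PBX3* probe is low with siRNA #8 only, the dimmer *PBX3* probe is lowest with siRNA #7, and *MEIS1* is open on each array. The bars of open points also come from probes well above background.

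Among the PBX genes, *PBX3* gave the largest difference and also the least settled one. *PBX3* encodes a PBX protein that partners HOXA9 and MEIS1 in leukemia. Its brighter probe (A_33_P3348887) read 28.8 on the control array, 27.9 after siRNA #7 and 14.1 after siRNA #8. It was therefore low on the siRNA #8 array alone. Relative to the control array, siRNA #8 gave a log2 ratio of -1.03 (SD 0.41 from the spots) and siRNA #7 of -0.046 (SD 0.40). Only 2.71% of all passing genes had a lower ratio with siRNA #8.

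The dimmer *PBX3* probe (A_23_P71821), matched to the same transcript accession, had intensities of 21.0, 9.27 and 14.3 in the same order. It was lower on both siRNA arrays than on the control array, but lowest with siRNA #7, where it was not well above background. After siRNA #7 the probe read 2.27-fold below the control. This is the ratio of single spots without the spot-to-spot error. After siRNA #8 the log2 ratio was -0.56 (SD 0.41). The probes thus placed the siRNA arrays in opposite order. Between siRNA #8 and siRNA #7 directly, the log2 ratio was -0.98 for the brighter probe (SD 0.38). The dimmer probe read 1.54-fold higher with siRNA #8, also without the spot-to-spot error. Averaged over both probes, an alternative chosen after these values were seen, the log2 ratio of *PBX3* was -0.61 with siRNA #7 and -0.79 with siRNA #8, and no cofactor then passed 2-fold. The ratio of -1.03 lies just past 2-fold. It was -0.98 when the 75th percentile was taken over the probes well above background on all arrays, and -0.16 with normexp background correction, whose added offset of 50 exceeds the intensity of this probe and shrinks its ratio by construction.

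*PBX4*, a PBX gene best known from the testis, read 139 on the control array, 167 after siRNA #7 and 184 after siRNA #8. It was thus highest with siRNA #8 and lowest in the control. Its log2 ratios to control siRNA were 0.26 (SD 0.16) and 0.40 (SD 0.18). With siRNA #8, *PBX4* and *PBX3* were the 2 cofactors whose brightest passing probe had a ratio above 2 spot-to-spot SDs, and with siRNA #7 none did. The dimmer *PBX3* probe had a log2 ratio of -1.18 with siRNA #7, where it was not well above background. The spot-to-spot SD came from probes well above background, so no SD is set beside this ratio. A ratio farther from 0 than that of *PBX4* with siRNA #8 was found for 33.1% of all passing genes. Under spike-in scaling the ratios of *PBX4* were -0.050 and 0.20.

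*PBX2*, a broadly expressed PBX gene, read 35.9 on the control array, 27.2 after siRNA #7 and 35.6 after siRNA #8. Its log2 ratio was -0.40 with siRNA #7 (SD 0.40) and -0.016 with siRNA #8 (SD 0.41). The first is about the size of the spot-to-spot error and the second far below it. By their brightest passing probes, *PBX2* was lowest with siRNA #7, *PBX3* with siRNA #8 and *PBX4* with control siRNA. The dimmer *PBX3* probe was lowest with siRNA #7, as *PBX2* was. These are orders of single spots, so they do not set the 3 genes apart.

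**Figure D2:**
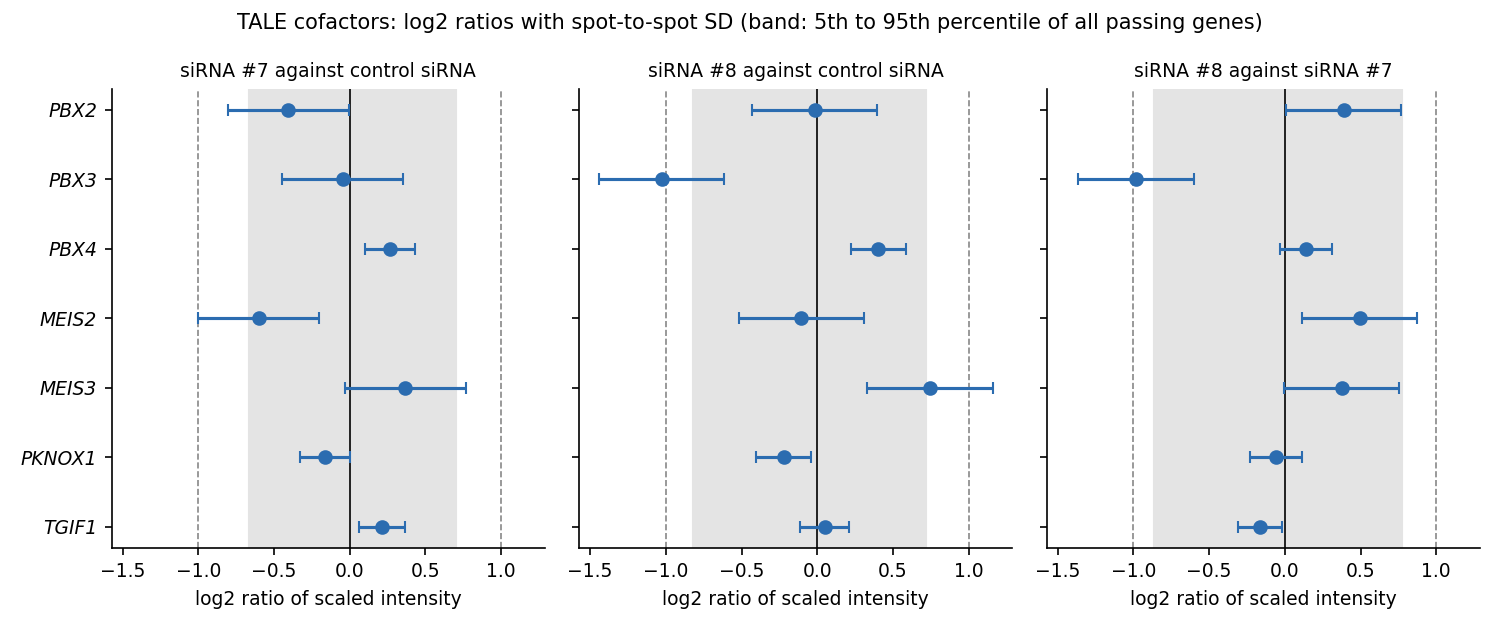
Log2 ratios of scaled intensity of the 7 TALE cofactors measured on all arrays, by their brightest passing probe, in the 3 comparisons between arrays; bars are the spot-to-spot SD of the ratio, dashed lines mark 2-fold and the gray band holds the 5th to 95th percentile of all 12031 passing genes. *PBX3* with siRNA #8 (-1.03) lies outside the band and past 2-fold, and *MEIS3* with siRNA #8 (0.74, 95th percentile 0.71) and *PBX3* between the siRNAs (-0.98, 5th percentile -0.86) also lie outside it, within 2-fold.

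The MEIS genes differed in detection. *MEIS1*, a leukemia-associated HOX partner that also regulates hypoxia genes, was not measured above background: its probe read 1.74 on the control array, 2.18 after siRNA #7 and 2.12 after siRNA #8, and none was well above background, so no ratio is given. Low amounts of *MEIS1* RNA were not detectable at this signal over background. *MEIS2*, which acts in limb and neural crest development, had intensities of 28.2, 18.6 and 26.2 in the same order. It was lowest with siRNA #7, with log2 ratios of -0.60 with siRNA #7 (SD 0.40) and -0.11 with siRNA #8 (SD 0.41). *MEIS3*, a related MEIS gene, had intensities of 11.6, 15.0 and 19.4. It was highest with siRNA #8, with log2 ratios of 0.37 with siRNA #7 (SD 0.40) and 0.74 with siRNA #8 (SD 0.41).

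*MEIS2* and *MEIS3* thus lay on opposite sides of the control, *MEIS2* lower and *MEIS3* higher, with both siRNAs, and both kept these signs under the 10 alternatives of background, scaling, filter and array position. As each has 1 passing probe, averaging the passing probes or loosening the background filter left the ratios as they were. The deposited log2 values and keeping the outlier-flagged spots hardly moved them. Their sizes were less stable. *MEIS2* ranged from -0.91 to -0.14 with siRNA #7 and *MEIS3* from 0.19 to 0.80 with siRNA #8, with the smallest values under normexp. In its other comparison each came close to 0. *MEIS2* with siRNA #8 was at -0.0063 under normexp, and *MEIS3* with siRNA #7 was at 0.055 under spike-in scaling. Only the ratio of *MEIS2* with siRNA #7 and that of *MEIS3* with siRNA #8 exceeded the spot-to-spot SD, and neither reached 2 SDs. *MEIS3* had the largest mean absolute log2 ratio of the cofactors over both siRNAs (0.56). The genes whose pair of ratios lay nearest to it were *AXIN2* (distance 0.014), *FAM78B* (0.023) and *FOXO4* (0.036), where the distance is Euclidean over the 2 log2 ratios, and 54 genes lay within 0.1, so that 3 arrays do not single out any of them.

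*PKNOX1*, which encodes the PREP1 partner of PBX proteins, was one of the steadier cofactors. Its probe read 165 on the control array, 147 after siRNA #7 and 141 after siRNA #8. The control array was highest and the siRNA arrays were close to each other. The log2 ratios to control siRNA were -0.16 (SD 0.16) and -0.22 (SD 0.18), about as large as the spot-to-spot error, and the ratio between siRNA #8 and siRNA #7 was -0.060 (SD 0.17). Both ratios to control siRNA stayed negative under the 10 alternatives, with ranges of -0.48 to -0.16 (siRNA #7) and -0.43 to -0.17 (siRNA #8). As for *MEIS2* and *MEIS3*, averaging the passing probes and loosening the filter left them unchanged.

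*TGIF1* was represented by 3 probes, all well above background on each array. The brightest (A_21_P0000192) read 1099 on the control array, 1273 after siRNA #7 and 1136 after siRNA #8. The second probe (A_23_P153197), with the same transcript accession, had 783, 741 and 796. The third (A_33_P3311717), matched to another *TGIF1* transcript, had 11.3, 11.8 and 12.8. The probes did not give 1 direction. With siRNA #7 their log2 ratios were 0.21 (SD 0.15), -0.080 (SD 0.15) and 0.055 (SD 0.40), and with siRNA #8 they were 0.048 (SD 0.16), 0.024 (SD 0.17) and 0.18 (SD 0.41). Of these 6 ratios, the first alone exceeded its SD, and it turned to -0.10 under spike-in scaling.

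The second *TGIF1* probe lay in column 17 of the array, where its 17 passing neighbors were brighter on the control array than on the siRNA arrays. The median deviation of these neighbors from each one's mean over the arrays was 0.26 on the control array, -0.11 after siRNA #7 and -0.24 after siRNA #8. Without this local deviation, the ratios of the probe went from -0.080 to 0.29 with siRNA #7 and from 0.024 to 0.52 with siRNA #8. For the brighter *PBX3* probe the neighbors deviated by -0.089, 0.098 and -0.041, and its ratio with siRNA #8 was -1.08 without them. That of the dimmer *PBX3* probe with siRNA #8 went from -0.56 to -0.80.

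**Figure D3:**
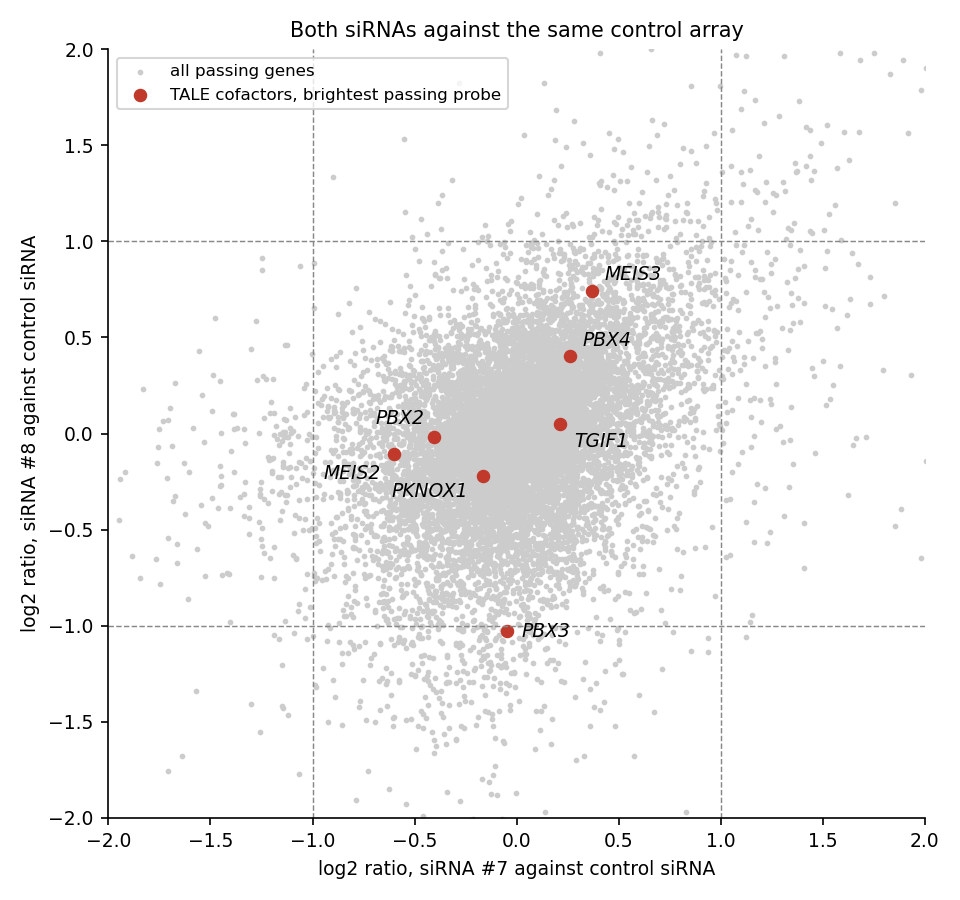
Log2 ratio to control siRNA with siRNA #7 (horizontal axis) and siRNA #8 (vertical axis) for the 12031 passing genes (gray, 67 of them outside the axes) and the 7 TALE cofactors (red, labeled); dashed lines mark 2-fold. The cofactors lie within the cloud of all genes, with *PBX3* on the line of 2-fold lower with siRNA #8 and near 0 with siRNA #7 (-0.046).

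Compared directly, siRNA #8 gave higher values than siRNA #7 for 4 of the 7 cofactors (*PBX2*, *PBX4*, *MEIS2* and *MEIS3*) and lower values for *PBX3*, *PKNOX1* and *TGIF1*. Past 2-fold were 0 of the 7, where 5.64% of all passing genes were (3.35% lower and 2.29% higher with siRNA #8), and *PBX3* was the nearest to it (-0.98). *PBX3* was also the 1 cofactor past 1.5-fold, where 20.5% of all passing genes were. *MEIS2* had a log2 ratio of 0.50 (SD 0.38) and *PBX2* of 0.39 (SD 0.38), and both had their lowest signal with siRNA #7. This comparison does not use the control array.

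When both siRNA arrays were joined as 1 silenced group and set against the control array, limma called 0 of the 7 cofactors at an adjusted p under 0.05, and 0 had an unadjusted p under 0.05. In that fit 1 of the 18121 passing probes was called and 659 had an unadjusted p under 0.05. *MEIS3* had the smallest unadjusted p of the cofactors in limma, 0.149. The joined fit takes the difference between siRNA #7 and siRNA #8 as the replicate error and has 1 array in its control arm, so its count of 0 says nothing on the stability of the ratios.

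The genes that work with the cofactors were taken from lists drawn up with earlier results of these data known. Their counts beside the shares of all passing genes are therefore descriptions only. Of 23 *HOX* genes of paralog groups 1 to 8, whose proteins bind DNA with PBX, 14 were measured on all arrays. With siRNA #7 their median log2 ratio was 0.10, with 1 gene past 2-fold, *HOXC4* (1.05, SD 0.40). It read 20.4 on the control array and 42.3 after siRNA #7. With siRNA #8 the median was -0.17, with *HOXB5* (1.13, SD 0.18, and 0.95 with siRNA #7) past 2-fold higher and *HOXA3* (-1.31, SD 0.41) past 2-fold lower. *HOXB5* read 161 on the control array and 351 after siRNA #8, and *HOXA3* read 36.8 and 14.8. Past 2-fold were thus 1 and 2 of 14, beside 3.77% and 4.98% of all passing genes. Of 16 *HOX* genes of groups 9 to 13, which include MEIS partners, 8 were measured, with medians of 0.11 and -0.15. None of them passed 2-fold with siRNA #7, and with siRNA #8 *HOXB13* (1.02, SD 0.17) and *HOXA11* (-1.09, SD 0.41) did, 2 of 8 beside 4.98% of all passing genes. *HOXB13* read 234 on the control array and 475 after siRNA #8, and *HOXA11* read 37.6 and 17.7. These *HOX* genes are named after their values were seen, and none of the 5 calls held under all 10 alternatives. Without the deviation of neighboring spots *HOXB5* was at 0.74 and *HOXB13* at 0.97 with siRNA #8. Spike-in scaling put *HOXC4* at 0.74, *HOXB5* at 0.92 and *HOXB13* at 0.81, and median scaling put *HOXC4* at 0.98 and *HOXB13* at 0.96. Under normexp alone *HOXA3* and *HOXA11* lost the call, each at -0.25, and *HOXC4* (0.36), *HOXB5* (0.87) and *HOXB13* (0.73) lost it there too. The normexp offset of 50 exceeds the intensities of *HOXA3*, *HOXA11* and *HOXC4* and shrinks their ratios by construction. The siRNA #7 medians of both groups became negative under spike-in scaling, and under normexp that of groups 9 to 13 with siRNA #7 and that of groups 1 to 8 with siRNA #8 also changed sign. In neither *HOX* group did a gene lie past 2-fold on the same side with both siRNAs.

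Of 8 other TALE genes (*TGIF2*, *IRX1* to *IRX6* and *MKX*), 3 were measured on all arrays. *IRX4*, a ventricular Iroquois gene in the heart, was the only 1 of these past 2-fold, with siRNA #7, where 3.77% of all passing genes were. Its probe read 825 on the control array, 1957 after siRNA #7 and 1473 after siRNA #8, with log2 ratios of 1.25 (SD 0.15) and 0.84 (SD 0.16). These went to 0.85 and 0.17 without the deviation of neighboring spots, and the first to 0.93 under spike-in scaling. Among 15 binding partners and corepressors, 14 were measured, with medians of -0.071 with siRNA #7 and 0.0028 with siRNA #8. Past 2-fold were 1 of the 14 with siRNA #7 and 1 with siRNA #8, beside 3.77% and 4.98% of all passing genes. *PBXIP1*, a PBX-binding protein that keeps PBX from DNA, had intensities of 34.5, 70.2 and 60.4 and was higher with both siRNAs, with log2 ratios of 1.02 (SD 0.34) and 0.81 (SD 0.35). Without the deviation of neighboring spots these were 0.77 and 0.60, and the first fell short of 2-fold under 5 of the 10 alternatives. *MYH10*, a nonmuscle myosin heavy chain, had intensities of 66.9, 37.0 and 30.4 and was lower with both, with log2 ratios of -0.85 (SD 0.33) and -1.14 (SD 0.34), the second past 2-fold under each of the 10 alternatives but normexp (-0.37). The corepressor genes *SIN3A*, *NCOR1*, *CTBP1*, *CTBP2*, *HDAC1* and *HDAC2* had log2 ratios between -0.27 and 0.30. *IRX4*, *PBXIP1* and *MYH10* are named after their values were seen. With *HOXB5* they are the 4 list genes past 2-fold with 1 siRNA and past 1.5-fold on the same side with the other. The share of all passing genes at this mixed threshold was not counted, so this count has no background beside it. At 1.5-fold with both siRNAs there were 5 of the 45 list genes measured, where 4.7% of all passing genes were. As the lists were drawn up with earlier results of these data known, this contrast is a description only.

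Of 10 genes described as targets of MEIS, PBX or TGIF1, 6 were measured, with medians of -0.25 with siRNA #7 and -0.39 with siRNA #8. *HIF1A*, the hypoxia-inducible factor reported as a MEIS1 target in blood stem cells, had intensities of 338, 244 and 124. Its log2 ratios were -0.47 (SD 0.050) with siRNA #7 and -1.44 (SD 0.057) with siRNA #8. It was the only 1 of the 6 genes past 2-fold against control siRNA, with siRNA #8, where 4.98% of all passing genes were. The ratio of *HIF1A* with siRNA #8 stayed past 2-fold under the 10 alternatives. *EPAS1*, its relative, had intensities of 722, 450 and 943 and lay on opposite sides of the control, with log2 ratios of -0.68 (SD 0.15) and 0.39 (SD 0.17). Both are named after their values were seen, and the probe of *MEIS1* itself did not exceed background. These lists are small, and the medians over all passing genes were 0.014 and 0.0072.

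To set the cofactors beside their own binding letters, RefSeq promoter windows (GRCh38.p14, 250 bases before to 50 after each gene start) were searched on both strands for TGACAG, the core bound by MEIS and PKNOX proteins, and for TGATNNAT, a PBX-HOX composite. The core TGACAG, whose reverse complement holds the TGTCA of TGIF1 sites, was found in 3 of the 16 windows of the 8 cofactors with a window, those of *PBX3* and *TGIF1*, and in 15.8% of all windows. TGATNNAT was found in 4 of the 16, those of *MEIS2* and *TGIF1*, and in 7.40% of all windows. Each gene start counts as a window, and *TGIF1* accounts for more than a single window with each motif, so these windows are not separate genes. The sites of *PBX3* and *MEIS2*, the cofactors with the lowest ratios to control siRNA, are shown with 10 bases on each side and the motif in capitals, on the strand of the gene. Those of *TGIF1*, which held both motifs and whose brightest probe had positive ratios, are not shown. Whether a motif goes with a ratio was not tested.
*PBX3*, chr9:125748153-125748178, plus strand, 20 bases before the gene start, reverse complement of TGACAG: ctttgccgagCTGTCAccctcccgct
*MEIS2*, chr15:37098743-37098770, minus strand, 64 bases before one of its gene starts, TGATNNAT: tttcgcctttTGATTTATtggatcctca
A match of letters is not a binding site, and these arrays do not measure binding.

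**Figure D4:**
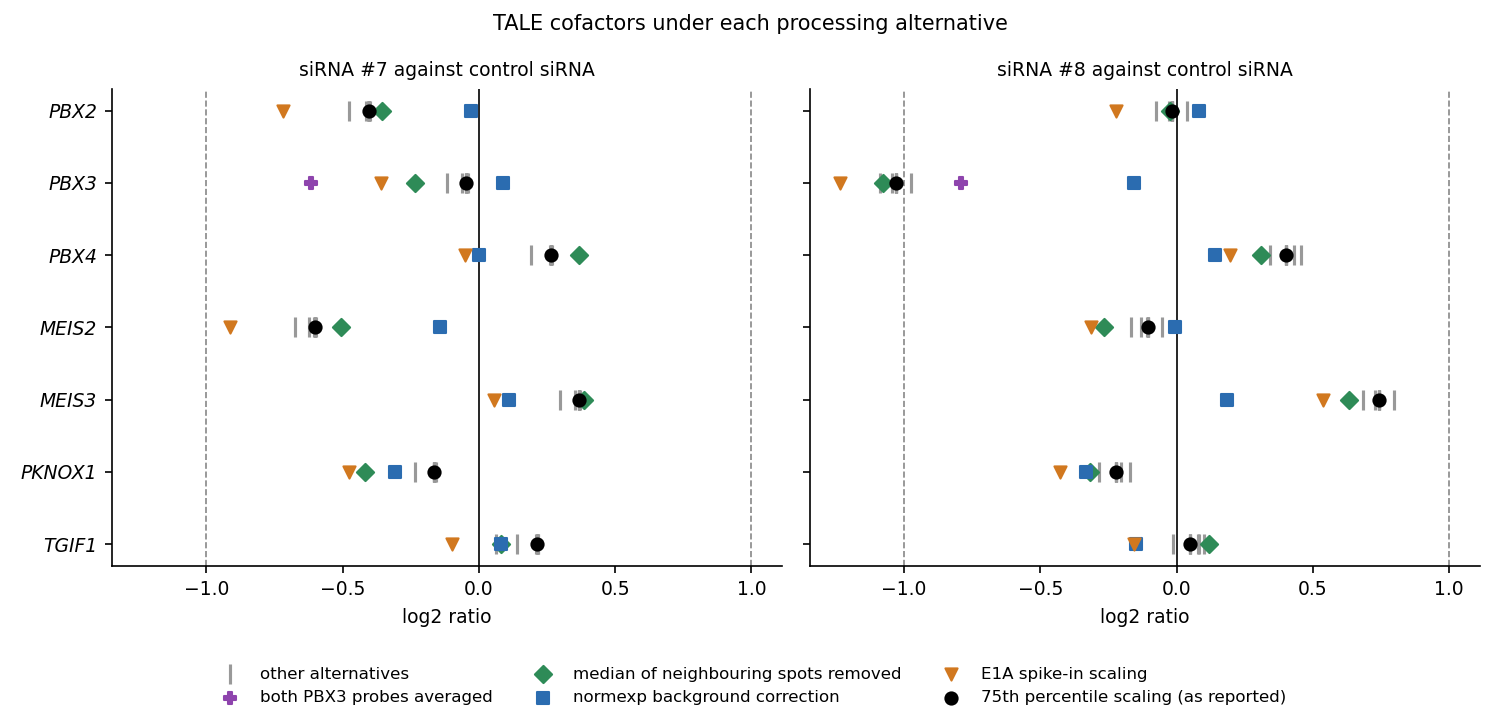
Log2 ratios to control siRNA of the 7 TALE cofactors with siRNA #7 (left) and siRNA #8 (right) as reported (black) and under each processing alternative (colored symbols and gray ticks); dashed lines mark 2-fold. *PBX3* with siRNA #8 runs from -1.24 with spike-in scaling to -0.16 with normexp, and *MEIS3*, *MEIS2* and *PKNOX1* stay on 1 side of 0 in both panels.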

How the data were processed

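Gene expression was measured on 3 one-color Agilent arrays. The authors scanned them with Agilent Feature Extraction 11.5.1.1, and the deposited intensity of each spot is background-subtracted and not scaled between arrays. The flag columns (other values) are 0 or 1 per the file headers. The authors also deposited log2 values of 21189 probes, made in GeneSpring per the methods. Each probe is centered on its median over the arrays, its column medians are 0, and its differences between arrays had a slope of 1 to those of log2 intensity, with shifts of 0.33 (siRNA #7) and 0.30 (siRNA #8) against control, those of the 75th percentile. Its normalization is not named.

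In Python 3.11.15 (numpy 2.4.6, pandas 2.3.3), outlier-flagged spots (313 to 413 per array) were dropped, spots of a probe averaged as log2, and the 75th percentile of each array subtracted. A probe passed if well above background on all 3 arrays and at or above the 20th percentile on 2. The brightest passing probe stood for a gene. Names came from RefSeq accessions without versions (30004 probes matched). Gene coordinates are not given, as the array annotation uses another build. The spot-to-spot SD was pooled in 6 ranges of signal and divided by the square root of the number of spots of a probe. A bound sets the brighter array against the higher of the dim value and the lowest signal well above background. Normexp (limma 3.58.1 in R 4.3.3, offset 50) used median spot signals.

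The members and lists were chosen with earlier results of these data known. The genes named were all 9 cofactors, *HOXA5*, list genes past 2-fold on the same side with both siRNAs (0), and the 3 genes nearest to the cofactor with the largest mean absolute ratio. Any other gene was chosen after its values were seen. The steps were tested on simulated data.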

Additional observations from a re-analysis of the deposited data

How the results depend on the processing

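No paired analysis was possible because only 1 array was made per condition. By the brightest passing probe of each gene, the counts of cofactors past 2-fold were 0 with siRNA #7, 1 with siRNA #8, 0 between the siRNAs and 0 with both. Most alternatives left these counts there. With siRNA #8 the count was 0 under normexp, with the 75th percentile taken over detected probes alone, and with both *PBX3* probes averaged, the last chosen after seeing the data. At a threshold of 1.5-fold it was 2 with siRNA #8, 1 with siRNA #7 and 1 between the siRNAs, beside 18%, 14.5% and 20.5% of all passing genes. Of the genes of the other lists, 0 lay past 2-fold on the same side with both siRNAs, 1 with spike-in scaling (*MYH10*), 1 when a probe had to be well above background on at least 1 array only (*HOXD13*), and 5 at 1.5-fold (*IRX4*, *HOXB5*, *HOXB8*, *PBXIP1* and *MYH10*). Of the 21 ratios of single cofactors, 13 kept their sign under the 10 alternatives run on them. Loosening the background filter changed none of the 21, and averaging the passing probes changed those of *TGIF1* alone. The deposited log2 values carry nearly the same scaling, so these alternatives say little on stability. The 1 cofactor ratio past 2-fold, that of *PBX3* with siRNA #8, kept its sign. The limma fit with both siRNAs joined called 0 cofactors, which says nothing on stability with 1 control array. For *PBX2*, *PBX3*, *MEIS2* and *MEIS3*, whose signals lie near background, the spot-to-spot SD of a ratio to control was 0.40 or 0.41, and smaller differences could not be told from it on 1 spot. The lower threshold, the averaged probes and the offset of normexp change the values by construction, and the cause of the others was not tested.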
